A study of Homo sapiens with 60 samples.

Results

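The 10 circadian clock genes BHLHE40, BHLHE41, PER1, PER2, PER3, CRY1, CRY2, NR1D1, NR1D2 and DBP were followed in A549 cells exposed to herbal extracts. They were chosen by gene symbol from a table of 60675 Ensembl gene identifiers, and each symbol matched a single identifier. All 10 passed the filter on low counts.

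In the mammalian clock, the activators CLOCK (or NPAS2) and BMAL1 bind E-box sequences and switch on the PER and CRY genes, whose proteins return to the nucleus and inhibit the activators. A further loop runs through the nuclear receptors NR1D1 and NR1D2 (REV-ERB alpha and beta), which repress BMAL1. BHLHE40 and BHLHE41 (DEC1 and DEC2) compete for E-boxes as repressors, and BHLHE40 also answers to hypoxia and other stresses, while DBP is an activator of clock output through D-box sequences.

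RNA sequencing had been carried out on A549, an established human lung carcinoma line, 24 h after an extract or vehicle was added. The labels gave 8 extracts at a low, a medium and a high dose. Yijin-tang and Soshiho-tang, which are water extracts of herbal formulas, and the ethanol extracts of Zizyphi Semen, Longan Arillus, Schisandrae Fructus and Liriopis seu Ophiopogonis Tuber were used at 20, 100 and 500 µg/mL. Polygalae Radix, an ethanol extract, was used at 15.2, 76 and 380 µg/mL, and Aucklandiae Radix, also an ethanol extract, at 14.8, 74 and 370 µg/mL. There were 3 libraries per group for vehicle and 5 of the extracts, 2 per dose for Soshiho-tang, and 1 per dose for Polygalae Radix and Aucklandiae Radix. The vehicle was DMSO, given as 0.1% in the sample labels and as 2% in the design text. No clock-synchronising step is named in the labels, and all libraries share 1 time after exposure, so the values describe levels and not rhythms. The labels do not say that replicates came from separate cultures, and the p-values below measure only the spread between these libraries.

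The 60 libraries held 18002709 to 33831798 expected counts. Levels are given as CPM, a count relative to the total of its library, scaled by TMM factors. Each library name opens with a number such as 8, or with C1 for vehicle, and this is called the set here. The labels do not say what it stands for, and every sample title names Batch C. The vehicle libraries have a set of their own (C1), so treatment and set cannot be told apart in any comparison with vehicle. The doses of an extract share a set. Longan Arillus low replicate 3 and Soshiho-tang medium replicate 3 stood apart: their log2 deviation from the median library fell with exon length, with slopes of -0.45 and -0.40 per doubling of length, against -0.09 to 0.08 in the other extract libraries. With them the common dispersion over all genes was 0.0173, and without them 0.00244. Tests are therefore given for all 54 libraries of the 19 replicated groups and again for the 52 libraries without this pair. The summed level of 8 epithelial and A549 markers was 2691 to 15500 CPM in the other 55 extract libraries and 15710 to 16070 CPM in vehicle; it was lowest in Polygalae Radix high. The leukocyte markers summed to 4.02 to 27.8 CPM in these extract libraries and 11.5 to 13.5 CPM in vehicle, most of it CD68 (1.18 to 27.6 CPM over all 60 libraries, with PTPRC and CD3E at most 0.0846 CPM). The 6 fibroblast markers summed to 17.3 to 42.7 CPM and 34.8 to 35.8 CPM, most of it COL1A1, with DCN at most 0.0758 CPM. The 6 endothelial and the 6 hepatocyte markers summed to at most 0.778 and 0.336 CPM in any library. Mitochondrially encoded genes took 11.0% to 18.8% of the counts in these 55 extract libraries and 11.5% to 11.8% in vehicle.

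Short stretches around the members' start sites are shown because 9 of the 10 genes carry a sequence that clock factors recognise. They come from the RefSeq promoter table for GRCh38.p14 (250 bases before to 50 after each start site), in which 13 windows belong to the members. Searched on both strands were the E-box CACGTG, the E′-box CACGTT, the D-box TTANGTAA, the cAMP response element TGACGTCA and the core of the ROR element TAGGTCA; none of these words contains another. Capitals mark the match. AACGTG is the E′-box read on the other strand.
BHLHE40, E-box, chr3:4979187-4979208, plus strand: tccaaCACGTGagactcatgtg
BHLHE41, E-box, chr12:26125069-26125096, minus strand: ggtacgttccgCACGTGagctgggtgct
PER1, E-box, chr17:8152561-8152588, minus strand: gcacccaggtcCACGTGcgcccgtgtgt
NR1D2, upstream E-box, chr3:23945955-23945982, plus strand: gcgggcggggaCACGTGaggccgctcgg
NR1D2, downstream E-box, chr3:23946005-23946032, plus strand: ggccgcagggaCACGTGggggcgggggc
NR1D2, D-box, chr3:23945916-23945945, plus strand: gtgacgcggcaTTACATAAtgggcgctgag
PER2, E′-box, chr2:238288791-238288818, minus strand: gcgcgcgcggtCACGTTttccactatgt
PER3, D-box, chr1:7784103-7784132, plus strand: gagcccgcgcgTTATGTAAcgcgccccggg
CRY2, ROR element core, chr11:45847399-45847427, plus strand: ttgcggcgtcaTAGGTCActgggcgggct
CRY1, E′-box, chr12:107093622-107093649, minus strand: cacacttcagaAACGTGaggtgccggtg
NR1D1, E′-box, chr17:40100741-40100768, minus strand: cgcaagagctcAACGTGccggctgttgg

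The E-box was present in 4 of the 13 member windows and in 7.26% of all 35116 windows. The E′-box was present in 4 of the 13 windows (PER2, CRY1, CRY2 and NR1D1) and in 5.34% of all windows. The D-box was present in 3 of the 13 windows (PER2, PER3 and NR1D2), against 2.18% of all windows, and in PER2 it crossed the start site. The ROR element core was present in 1 member window, that of CRY2, and the cAMP response element in none; each was present in 1.85% of all windows. DBP held none of the 5 words in its window.

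Per kilobase of merged exon, the repressor BHLHE40 was the most abundant member in vehicle cells, at 33.9 ± 0.869 CPM per kb (SD, n = 3). CRY1 and PER2 followed at 6.16 ± 0.370 and 6.10 ± 0.179 CPM per kb, and their ranges overlapped. NR1D2 stood at 3.45 and NR1D1 at 3.10 CPM per kb, PER1 at 1.94 and CRY2 at 1.16 CPM per kb. DBP and PER3 lay at 0.626 and 0.611 CPM per kb with overlapping ranges, and BHLHE41 was barely detected at 0.0866 CPM per kb (8 to 13 counts per vehicle library). All further levels are CPM and compare a gene with itself.

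BHLHE40 (GRCh38 chr3:4979116-4985323, plus strand) was the clock gene whose extract and vehicle libraries did not overlap. Apart from the pair low in long transcripts, all 55 extract libraries (lowest 154.6, median 172, highest 238.7 CPM) lay above the 3 vehicle libraries at 129.3, 133.7 and 127.2 CPM. No other member separated in this way in either direction, and of all 17826 tested genes 0.404% had every one of these 55 libraries above vehicle and 1.01% every one below. The exceptions were the pair itself, with 127.9 CPM in Soshiho-tang medium replicate 3 and 74.7 CPM in Longan Arillus low replicate 3. The mitochondrial share given above was also higher in most extract libraries, and its part in the BHLHE40 level was not tested. For single sets or groups, and for partial counts of libraries, shares over all genes were not computed. Such counts given below for other members therefore describe those values only.

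**Figure D1:**
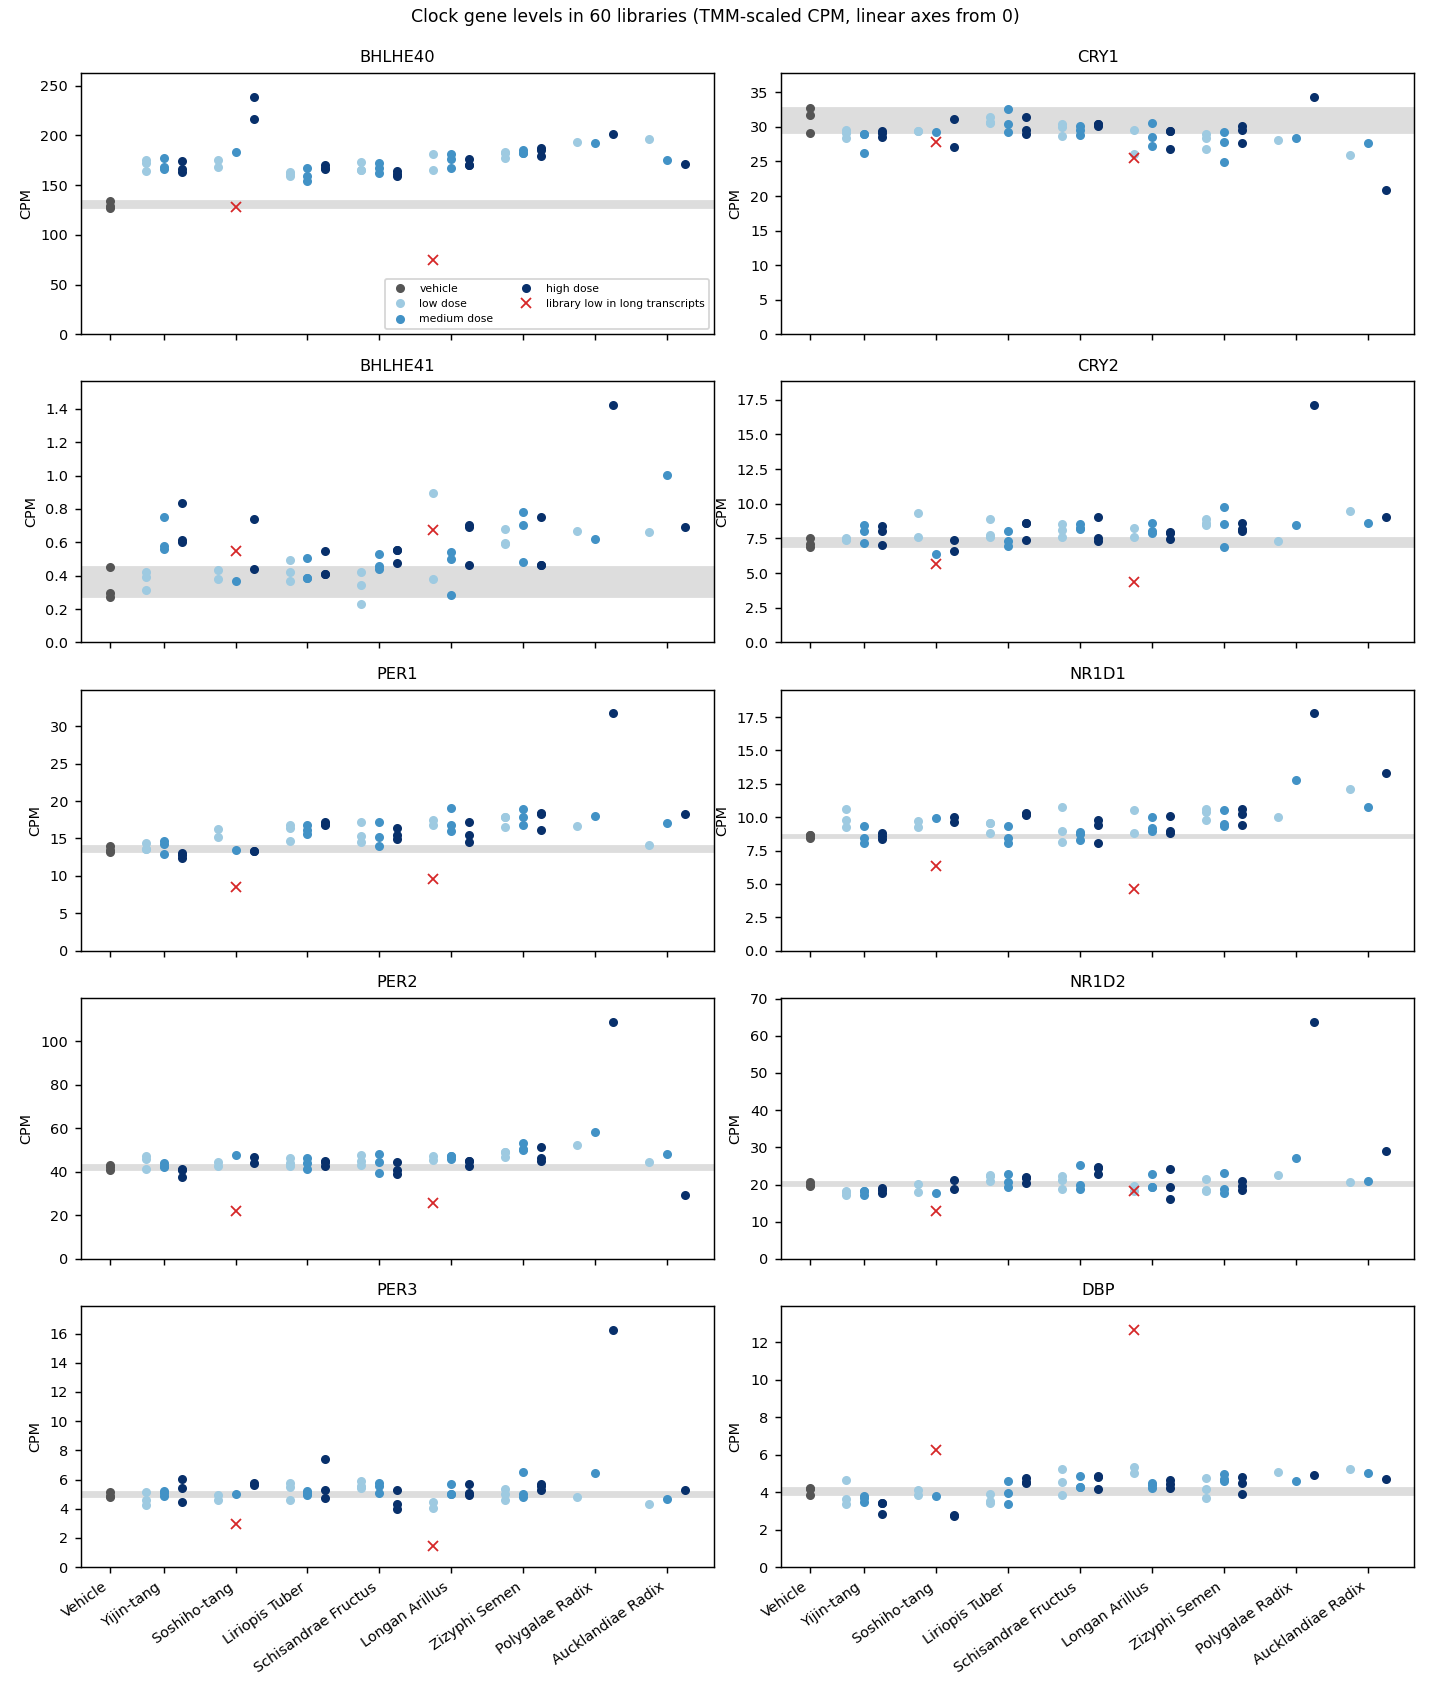
TMM-scaled CPM of the 10 clock genes (linear axes from 0) in each of the 60 libraries; groups run from vehicle through the 8 extracts, each at low, medium and high dose from left to right, the grey band is the range of the 3 vehicle libraries and crosses are the 2 libraries low in long transcripts. BHLHE40 lies above the band in all 55 other extract libraries, and Polygalae Radix high is the highest library for every gene but BHLHE40 and DBP.

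At the high dose, BHLHE40 had 238.7 and 216.4 CPM with Soshiho-tang, the 2 highest values of the series, against 127.2 to 133.7 CPM in vehicle. Its log2 fold change was 0.81 ± 0.15 (SE), or 1.75-fold, with an edgeR adjusted p of 0.000555 in 54 libraries and 2.53e-20 in 52. With Zizyphi Semen high, the 3 libraries held 179.4, 185.6 and 187.5 CPM, a log2 fold change of 0.50 ± 0.14 with an edgeR adjusted p of 0.0327 (4.25e-13 in 52 libraries). The call in 54 libraries was lost whichever of its 6 libraries was left out, although the change stayed at 0.50 to 0.53. Both groups lay wholly above vehicle.

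The other 4 replicated extracts gave smaller differences from vehicle at the high dose. BHLHE40 had 170.2, 176.1 and 170.2 CPM with Longan Arillus high, a log2 fold change of 0.41, and 163.3, 165.8 and 174.0 CPM with Yijin-tang high, a log2 fold change of 0.37. With Liriopis seu Ophiopogonis Tuber high it had 166.4, 169.9 and 167.4 CPM (log2 fold change 0.37), and with Schisandrae Fructus high 161.4, 163.8 and 159.2 CPM (0.31). These 4 changes had edgeR adjusted p values of 0.169 to 0.471 in 54 libraries and of 3.97e-10 to 7.27e-08 in 52. Without the pair, BHLHE40 was called higher than vehicle in all 18 replicated extract groups, with log2 fold changes of 0.30 to 0.81. From low through medium to high dose, the share of all genes called higher in those comparisons was 1.46%, 1.11% and 3.04% for Yijin-tang, 0.922%, 0.329% and 10.2% for Soshiho-tang, and 1.54%, 1.38% and 2.62% for Liriopis seu Ophiopogonis Tuber. From low to high dose the share was 2.36%, 1.65% and 4.23% for Schisandrae Fructus, 11.2%, 8.31% and 5.55% for Longan Arillus, and 12%, 12.3% and 9.29% for Zizyphi Semen.

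BHLHE40 hardly followed the dose. In Zizyphi Semen its 3 libraries had 177.4, 182.2 and 183.8 CPM at the low dose, 184.9, 182.8 and 182.1 CPM at the medium dose and 179.4, 185.6 and 187.5 CPM at the high dose. The log2 fold change of high against low was 0.02 there, -0.03 for Yijin-tang, 0.06 for Liriopis seu Ophiopogonis Tuber and -0.06 for Schisandrae Fructus, none of them called in either fit. In 52 libraries the 95% intervals of these 4 changes lay between -0.13 and 0.14. Ordered by group mean, vehicle was lowest and Soshiho-tang high was highest, and most neighbouring groups between them overlapped in range.

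Soshiho-tang was the exception. Its BHLHE40 level was 238.7 and 216.4 CPM at the high dose, against 175.6 and 168.3 CPM at the low dose, and the medium dose held 183.5 CPM in its unaffected library. The change of high against low was 0.41 ± 0.17 on the log2 scale with an edgeR adjusted p of 0.382 in 54 libraries, and 0.40 ± 0.046 with 4.30e-09 in 52. The call therefore depends on the 2 libraries low in long transcripts, although the size does not.

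BHLHE41 (chr12:26120026-26125127, minus strand), the close relative of BHLHE40, had 6 to 40 counts per library, and its values carry the largest relative spread of the 10 genes. With Yijin-tang high it had 0.836, 0.603 and 0.612 CPM, against 0.274, 0.296 and 0.455 CPM in vehicle, and the groups did not overlap. The log2 fold change was 1.00 ± 0.28, with an edgeR adjusted p of 0.147 in 54 libraries and 0.0313 in 52. Its highest value, 1.42 CPM, was in Polygalae Radix high. An exon of SSPN on the other strand overlaps it by 162 bp.

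PER1 (chr17:8140472-8156506, minus strand), a repressor of the activators and an immediate early gene of light and hormone signals, lay differently against vehicle in the different sets. In the 14 unaffected libraries of set 8 (Yijin-tang and Soshiho-tang) its level was 12.4 to 16.2 CPM, which spans the vehicle values of 13.4, 13.3 and 14.0 CPM. In set 9 all 18 libraries (14.0 to 17.2 CPM) and in set 10 the 17 unaffected libraries (14.5 to 19.1 CPM) lay above vehicle. The share of all genes that lay so in these sets was not computed. The largest replicated change at the high dose was with Zizyphi Semen, at 18.4, 18.3 and 16.2 CPM, a log2 fold change of 0.38 with an edgeR adjusted p of 0.0886 in 54 libraries and 0.000129 in 52.

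PER1 was also called in 52 libraries with Liriopis seu Ophiopogonis Tuber high (16.8, 16.9 and 17.2 CPM; log2 fold change 0.32, edgeR adjusted p = 0.0031) and with Longan Arillus high (17.1, 14.5 and 15.5 CPM; 0.21, edgeR adjusted p = 0.0455). Against the low dose it was called in no extract in either fit. It thus stood above vehicle at every dose of set 9 and set 10, where set and treatment cannot be told apart.

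PER2 (chr2:238244038-238290102, minus strand), the period repressor with the highest level here, was called at few doses. Its values with Zizyphi Semen high were 44.9, 51.3 and 46.1 CPM, against 43.1, 42.1 and 40.7 CPM in vehicle, a log2 fold change of 0.18 that was called in 52 libraries (edgeR adjusted p = 0.0164) and not in 54 (0.628). The medium dose of that extract gave 53.17, 49.99 and 50.52 CPM, the highest PER2 level of a replicated group. In 52 libraries 27.4% of all genes were called at that dose against vehicle, and 26.7% at the low dose.

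PER3 (chr1:7784320-7845177, plus strand), the third of the period repressors, had 4.84, 5.12 and 4.90 CPM in vehicle and 3.98 to 7.40 CPM in the 49 unaffected libraries of the replicated extracts, and was called in no comparison of the high dose with vehicle in either fit. An exon of UTS2 on the other strand overlaps it, with a median count of 0.

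CRY1 (chr12:106991364-107093829, minus strand) encodes the stronger of the cryptochrome repressors, and it was the member that tended to lie below vehicle. Of the 55 unaffected extract libraries, 25 lay below all 3 vehicle libraries (32.8, 29.1 and 31.7 CPM) and 1 above them. The differences were small: with Zizyphi Semen medium CRY1 had 27.9, 29.3 and 25.0 CPM, a log2 fold change of -0.18 ± 0.057 with an edgeR adjusted p of 0.0138 in 52 libraries (0.0724 in 54). At the high dose of the 6 replicated extracts CRY1 was not called in either fit.

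CRY2 (chr11:45847118-45883248, plus strand), the other cryptochrome, lay at 6.38 to 9.77 CPM in the 49 unaffected libraries of the replicated extracts and at 6.86, 7.13 and 7.56 CPM in vehicle, and 34 of the 49 lay above vehicle. It was called against vehicle only with Zizyphi Semen low in 52 libraries, at 8.89, 8.47 and 8.59 CPM (log2 fold change 0.27, edgeR adjusted p = 0.0291).

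NR1D1 (chr17:40092787-40100725, minus strand), the repressor of BMAL1, had tightly grouped vehicle values of 8.64, 8.69 and 8.47 CPM, and 46 of the 55 unaffected extract libraries lay above them. With Zizyphi Semen high it had 10.2, 9.40 and 10.6 CPM, a log2 fold change of 0.23 called in 52 libraries (edgeR adjusted p = 0.0417) and not in 54 (0.475). THRA, which is far more abundant, overlaps NR1D1 by 263 bp of exon on the other strand, and the strand setting of the counting is not given in the sources used here, so small NR1D1 differences are uncertain.

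NR1D2 (chr3:23945260-23980618, plus strand), its paralogue, was not called at the high dose of any replicated extract in either fit. Its 14 unaffected libraries of set 8 held 17.1 to 21.3 CPM and 12 of them lay below the vehicle values of 20.0, 19.6 and 20.6 CPM, while the 18 libraries of set 9 held 18.8 to 25.2 CPM and 13 of them lay above vehicle.

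DBP (chr19:48630030-48637438, minus strand), the D-box activator and a direct output of CLOCK and BMAL1, fell with Soshiho-tang high in the 52 libraries. It had 2.71 and 2.80 CPM (62 and 64 counts), against 3.88, 4.17 and 4.24 CPM in vehicle. At the low dose of Soshiho-tang it had 3.87 and 4.12 CPM, so the high dose lay below both. The log2 fold change against vehicle was -0.57 ± 0.14 with an edgeR adjusted p of 0.00189 in 52 libraries (0.186 in 54). Against the low dose it was -0.54 ± 0.16 with 0.0188 in 52 libraries (0.520 in 54). Of the 14 unaffected libraries of set 8, 12 lay below all 3 vehicle libraries for DBP and 1 above them. Yijin-tang high, in the same set, had 2.86 to 3.45 CPM. SPHK2 overlaps DBP by 661 bp of exon on the other strand.

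The count of members called is small at every high dose. For Soshiho-tang high against vehicle, 1 of the 10 was called in 54 libraries (BHLHE40, where 5.08% of all genes were called) and 2 in 52 (BHLHE40 higher and DBP lower; 21.5% of all genes). For Zizyphi Semen high, 1 was called in 54 libraries (3.66% of all genes) and 4 in 52, all higher (BHLHE40, PER1, PER2 and NR1D1; 22.1% of all genes). The other 4 extracts had no member called in 54 libraries, where 0.544% of all genes were called for Yijin-tang, 0.325% for Liriopis seu Ophiopogonis Tuber, 1.02% for Schisandrae Fructus and 1.33% for Longan Arillus. DESeq2 called none in these 4 either. At an unadjusted p under 0.05, each of them had 2 members, BHLHE40 and 1 other, beside 7.53%, 6.59%, 8.67% and 11.2% of all genes in that order. The shares of all genes moved when 1 library was left out: 905 genes were called for Soshiho-tang high and 294 to 639 without 1 library, 653 and 228 to 305 for Zizyphi Semen high, 237 and 56 to 576 for Longan Arillus high, and 181 and 68 to 99 for Schisandrae Fructus high. For Yijin-tang high they were 97 and 49 to 69, and for Liriopis seu Ophiopogonis Tuber high 58 and 27 to 45.

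In 52 libraries, Yijin-tang high had 2 members called (BHLHE40 and BHLHE41; 7.16% of all genes) and Liriopis seu Ophiopogonis Tuber high 2 (BHLHE40 and PER1; 7.27%). Schisandrae Fructus high had 1 (BHLHE40; 9.15%) and Longan Arillus high 2 (BHLHE40 and PER1; 13.8%). The median log2 fold change of the 10 members in 52 libraries ran from -0.03 for Yijin-tang to 0.20 for Liriopis seu Ophiopogonis Tuber, beside medians over all genes within 0.01 of 0. BHLHE40 was the one member called in all 6.

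**Figure D2:**
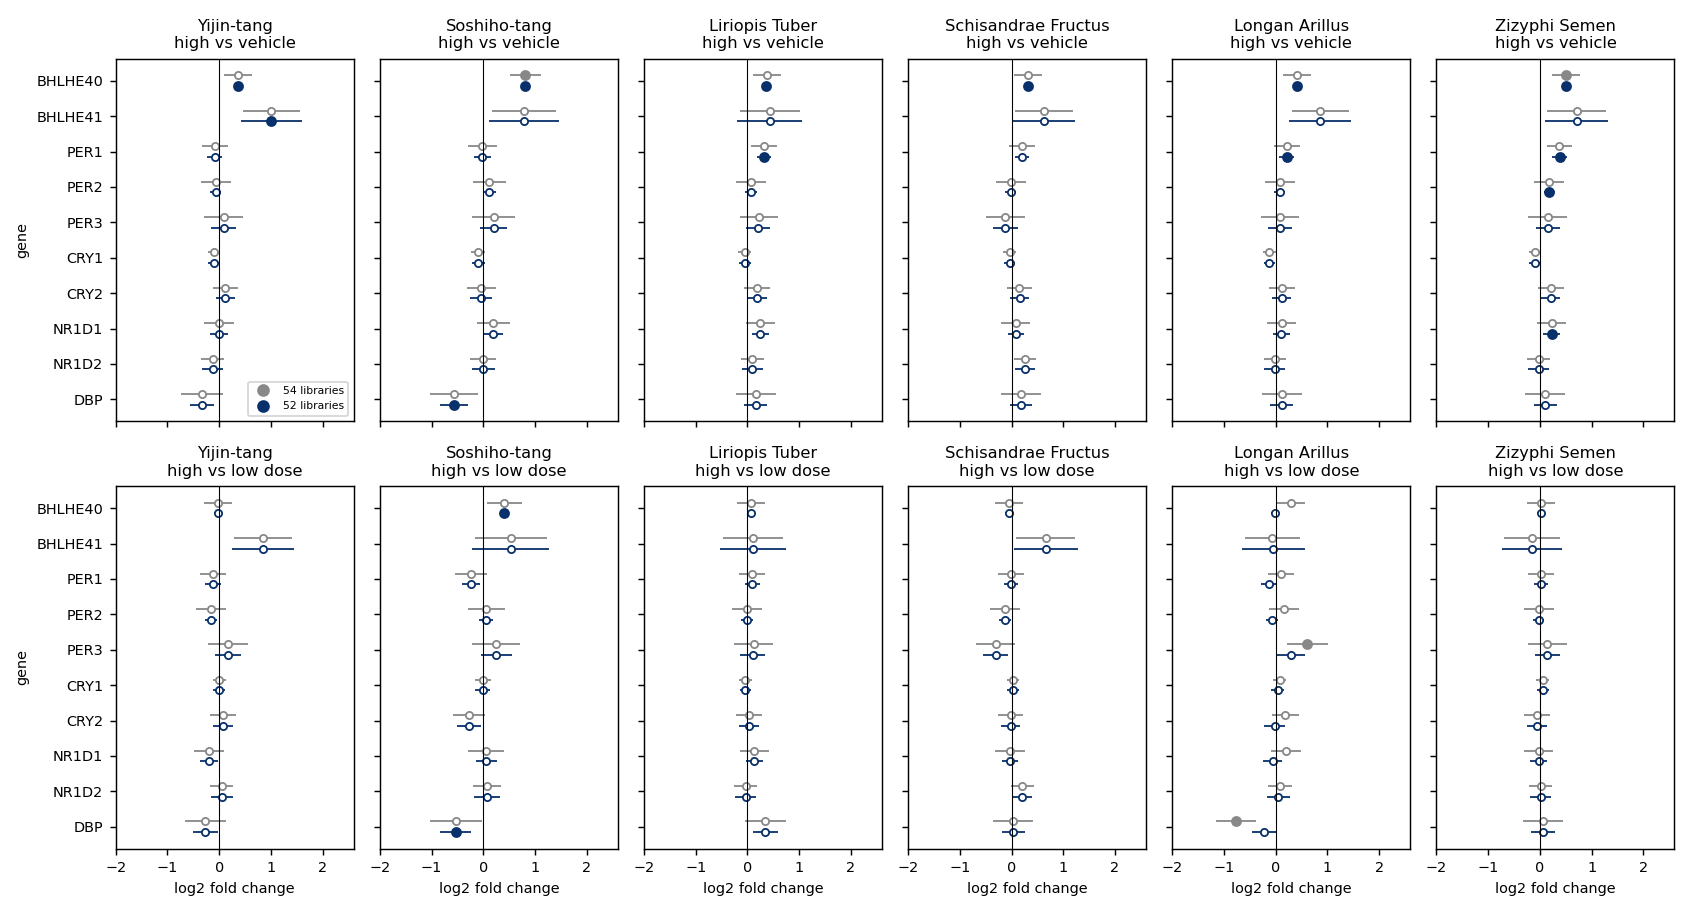
Log2 fold change of each clock gene (edgeR) at the high dose against vehicle (upper row) and against the low dose (lower row) for the 6 replicated extracts, in all 54 libraries (grey) and in the 52 without the pair low in long transcripts (blue); bars are 95% intervals and filled points have an adjusted p below 0.05. BHLHE40 is right of 0 in every upper panel (0.31 to 0.81), and in the lower row its filled point is in the Soshiho-tang panel.

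Against the low dose, no member was called in 54 libraries for Yijin-tang (0.146% of all genes called), Soshiho-tang (1.58%), Liriopis seu Ophiopogonis Tuber (0%), Schisandrae Fructus (0.00561%) and Zizyphi Semen (0.028%). In 52 libraries, 2 were called for Soshiho-tang, BHLHE40 higher and DBP lower (9.50% of all genes), and none for Yijin-tang (0.987%), Zizyphi Semen (1.15%), Longan Arillus (0.0878%), Schisandrae Fructus (1.54%) and Liriopis seu Ophiopogonis Tuber (0%). At an unadjusted p under 0.05 in 54 libraries, members numbered 1 for Yijin-tang (BHLHE41, beside 3.52% of all genes), 2 for Soshiho-tang (BHLHE40 and DBP, 8.9%) and 0 for Liriopis seu Ophiopogonis Tuber (1.57%), Schisandrae Fructus (3.67%) and Zizyphi Semen (3.75%), and DESeq2 called none in these 5. In 52 libraries they numbered 4 for Yijin-tang (8.78%), 1 for Liriopis seu Ophiopogonis Tuber (5.16%), 3 for Schisandrae Fructus (12.3%), 1 for Longan Arillus (10.7%) and 0 for Zizyphi Semen (10.8%).

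For Longan Arillus high against low, 2 members were called in 54 libraries, where 18.7% of all genes were called (3340 genes, and 3 to 7667 without 1 library). PER3 had 4.94, 5.69 and 5.08 CPM at the high dose, against 4.48, 4.05 and 1.46 CPM at the low dose (log2 fold change 0.61, edgeR adjusted p = 0.0297). DBP had 4.25, 4.43 and 4.63 CPM at the high dose, against 5.34, 5.04 and 12.7 CPM at the low dose (-0.77, edgeR adjusted p = 0.0106). The last low-dose value of each gene is the library low in long transcripts. Without the pair the changes were 0.30 and -0.22, and neither was called (edgeR adjusted p = 0.438 and 0.532).

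Between the extracts of a set at the high dose, no member was called in 54 libraries, where 1.19% of all genes were called between Yijin-tang and Soshiho-tang, 0.0505% between Liriopis seu Ophiopogonis Tuber and Schisandrae Fructus and 0.0112% between Longan Arillus and Zizyphi Semen. In 52 libraries BHLHE40 was lower with Yijin-tang high than with Soshiho-tang high, at 163.3, 165.8 and 174.0 CPM against 238.7 and 216.4 CPM. The log2 fold change was -0.44 ± 0.041 with an edgeR adjusted p of 3.38e-11 in 52 libraries (0.230 in 54), and it was the single member called, where 8.37% of all genes were called. The difference between the high-minus-low changes of these 2 extracts was -0.43 ± 0.059 (edgeR adjusted p = 1.56e-06 in 52 libraries, 1.00 in 54), where 2.58% of all genes were called in 52 libraries and 0.286% in 54. No member differed between Liriopis seu Ophiopogonis Tuber and Schisandrae Fructus or between Longan Arillus and Zizyphi Semen in either fit. The shares of all genes called in 52 libraries were 3.01% and 0.719%, and for the difference of dose changes 0.318% and 0.137% (0% and 0.0112% in 54). For BHLHE40 the 95% intervals of the difference at the high dose in 52 libraries were -0.02 to 0.13 and -0.17 to -0.02, and the edgeR adjusted p was 0.512 and 0.299.

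Polygalae Radix high held the highest levels of PER1, PER2, PER3, CRY2, NR1D1 and NR1D2, in 1 library and so with no test. This library also had the most positive length slope of the 60, at 0.079 against 0.037 or less in the others. The merged exons of PER3, PER1 and PER2 are 8099, 7002 and 6877 bp long, and those of CRY2, NR1D2 and NR1D1 6200, 5820 and 2772 bp. DBP, at 6544 bp, had a ratio to vehicle of 1.21. The part of length in these values was not tested. Levels at vehicle and at low, medium and high dose of Polygalae Radix follow, with the vehicle value as the mean ± SD of 3 libraries. PER2 had 41.9 ± 1.23, 52.4, 58.1 and 109.0 CPM. NR1D2 had 20.1 ± 0.496, 22.7, 27.1 and 63.8 CPM, and PER3 had 4.95 ± 0.146, 4.78, 6.43 and 16.2 CPM. The high-dose values were the highest of the 60 libraries for each of these genes, with exact Poisson 95% intervals of 105.2 to 113.0 CPM for PER2, 60.9 to 66.8 CPM for NR1D2 and 14.8 to 17.8 CPM for PER3, which cover counting error only.

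PER1 had 13.6 ± 0.394, 16.7, 17.98 and 31.7 CPM over the same series. CRY2 had 7.18 ± 0.356, 7.33, 8.45 and 17.1 CPM, and NR1D1 had 8.60 ± 0.115, 10.0, 12.8 and 17.8 CPM. For PER1 and CRY2 the larger step was between the medium and the high dose, whereas NR1D1 already had a log2 ratio to vehicle of 0.53 at the medium dose and of 0.97 at the high dose.

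The ratio of Polygalae Radix high to the vehicle mean was 4.16 for BHLHE41, which rests on 40 counts (1.42 CPM, exact Poisson 95% interval 1.02 to 1.94 CPM, against 0.342 CPM in vehicle), 3.28 for PER3, 3.18 for NR1D2, 2.6 for PER2, 2.38 for CRY2, 2.34 for PER1 and 2.07 for NR1D1. BHLHE40 had a ratio of 1.55 at the high dose, little different from 1.49 at the low dose. DBP (4.94 CPM, ratio 1.21) and CRY1 (34.3 CPM, ratio 1.1) differed least. On the log2(CPM + 1) scale, 5 of the 10 members were at least 2-fold above the vehicle mean and none below, where 3.21% of all genes were above by that measure and 8.15% below; with 0.25 CPM added in place of 1, it was 7, beside 6.48% of all genes. At the low and the medium dose none of the 10 was past 2-fold, where 0.309% and 0.365% of all genes were that far above and 0.18% and 0.348% that far below. The median log2 ratio of the 10 was 1.06, beside 0.01 over all genes.

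THRA, the overlapping neighbour of NR1D1, was at 25.0 CPM in Polygalae Radix high and 45.1 CPM in vehicle. SPHK2, the neighbour of DBP, was at 29.7 and 19.7 CPM. The part of either neighbour in the values of NR1D1 and DBP was not tested. In the same library the 8 epithelial and A549 markers summed to 2691 CPM, against 15710 to 16070 CPM in vehicle, with KRT8 at 479 CPM against a vehicle mean of 3595 CPM; the part of this shift in the clock gene values was not tested. The design text states that extracts with a 20% inhibitory concentration below the top dose were used at that concentration, and that samples which failed for want of RNA were left out. Fewer cells and less RNA per cell cannot be told apart in these bulk libraries.

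**Figure D3:**
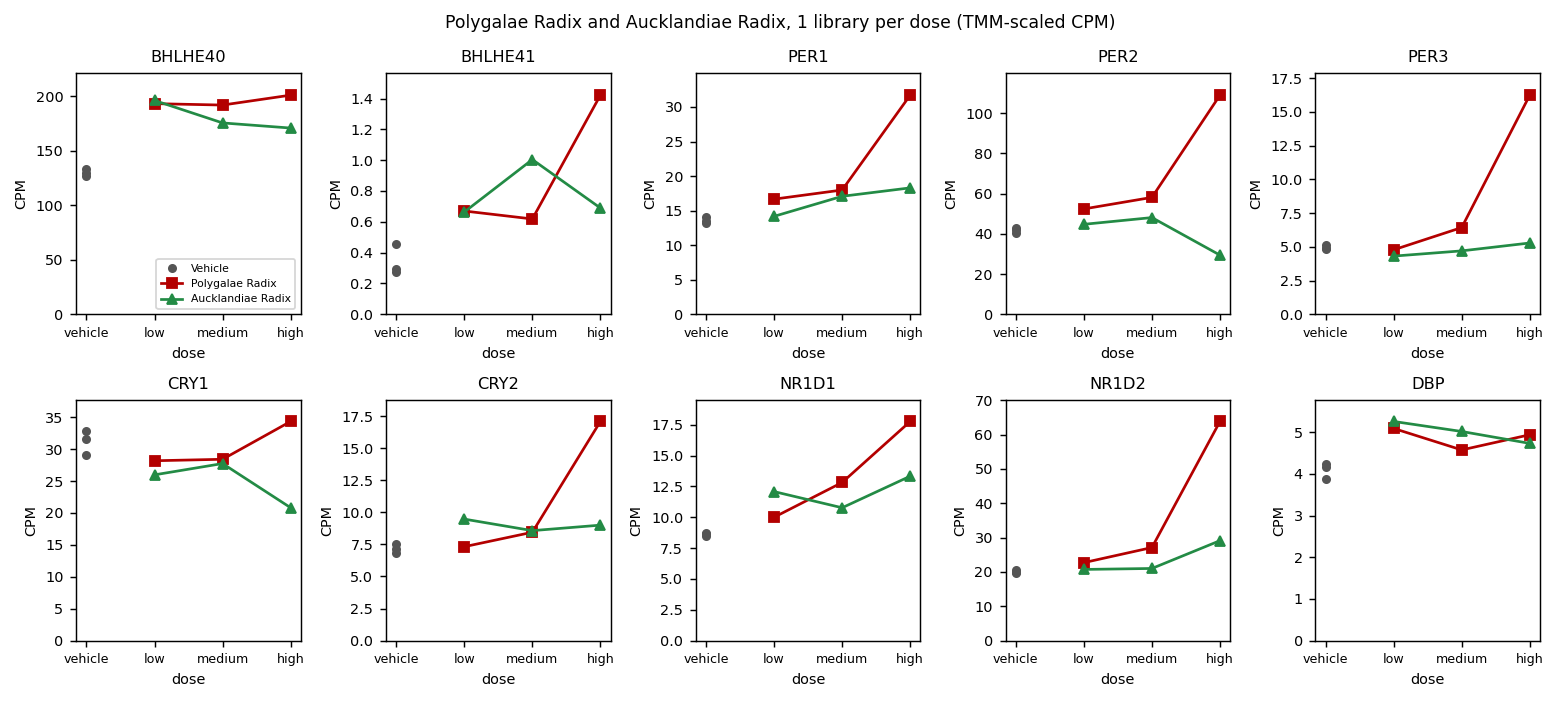
TMM-scaled CPM of the 10 clock genes (linear axes from 0) in the 3 vehicle libraries and in the single libraries of Polygalae Radix (squares) and Aucklandiae Radix (triangles) at the low, medium and high dose. Between medium and high dose of Polygalae Radix, PER2 stands at 58.1 and 109.0 CPM and NR1D2 at 27.1 and 63.8 CPM, while BHLHE40 stays between 192.0 and 201 CPM.

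Aucklandiae Radix, tested in the same set and also unreplicated, had no member past 2-fold at any dose with 1 CPM added (with 0.25 CPM added, 1 at the medium dose, BHLHE41, beside 1.06% of all genes), where 0.903% of all genes were that far above and 0.712% that far below vehicle at the high dose. At the low dose these shares were 0.365% and 0.449%, and at the medium dose 0.337% and 0.37%. PER2 had 41.9 ± 1.23, 44.7, 48.1 and 29.4 CPM from vehicle through the high dose, and CRY1 had 31.2 ± 1.87, 26.0, 27.7 and 20.8 CPM. These high-dose values were below all 3 vehicle libraries, whereas NR1D2 (29.1 CPM) and NR1D1 (13.3 CPM) were above them. In that library the epithelial and A549 markers summed to 9032 CPM, against 15710 to 16070 CPM in vehicle, and the leukocyte markers to 27.8 CPM, the highest of the 60, against 11.5 to 13.5 CPM; their part in these values was not tested. BHLHE40 had 196.2, 175.6 and 170.9 CPM from low to high dose.

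**Figure D4:**
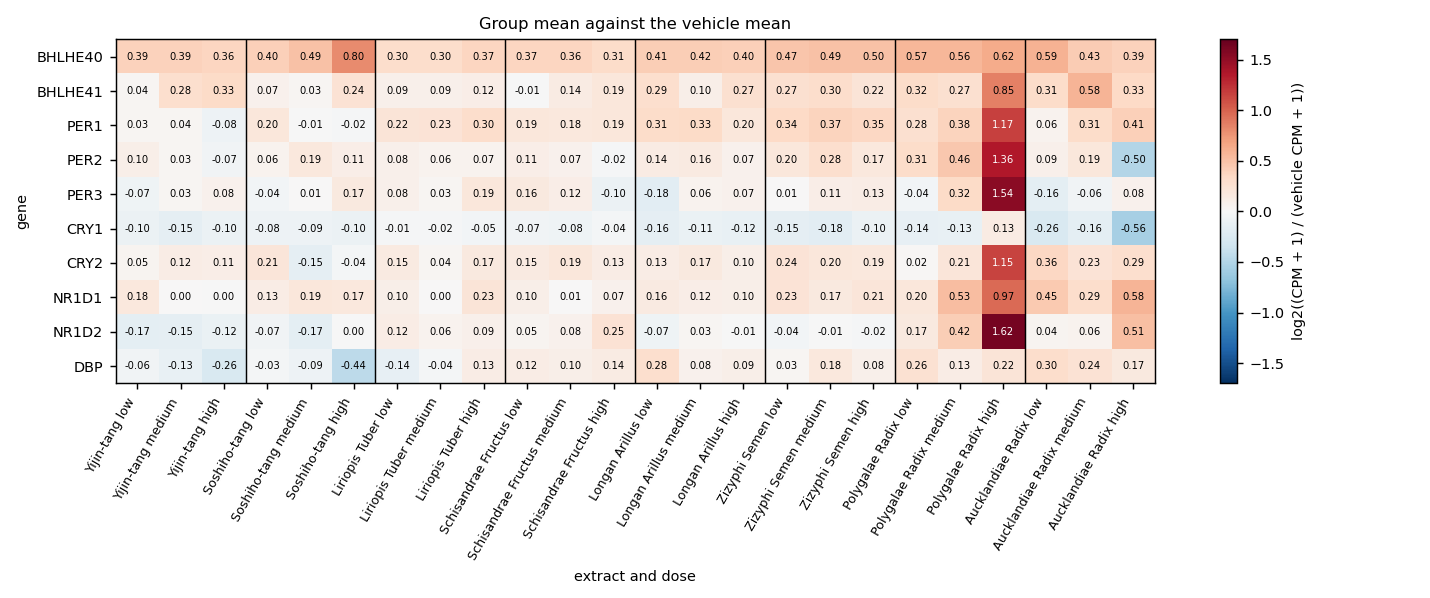
Log2 ratio of each group mean to the vehicle mean (1 CPM added to both) for the 10 clock genes over the 24 extract groups, low to high dose within each extract, without the 2 libraries low in long transcripts; the Polygalae Radix and Aucklandiae Radix columns are single libraries. The BHLHE40 row is above 0 in all 24 columns, the CRY1 row is below 0 in 23, and Polygalae Radix high is the column with most ratios near or above 1.

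The level of BHLHE40 in each extract library was set against those of the other clock genes. Within sets 8, 9 and 10 (15, 18 and 18 libraries), 27 relations of log2(CPM + 1) were computed, and 11 had an adjusted permutation p below 0.05 for Pearson's r with all libraries, but none for Spearman's rho. Without the pair, none of the 27 passed for either coefficient.

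NR1D1 had the most even relation with BHLHE40. Without the pair, r was 0.44 in set 8 (n = 14, permutation p = 0.12), 0.61 in set 9 (n = 18, permutation p = 0.0083) and 0.64 in set 10 (n = 17, permutation p = 0.0066), and Spearman's rho was 0.60, 0.54 and 0.55 (permutation p = 0.027, 0.023 and 0.025). The adjusted p of r was 0.26 in set 8 and 0.11 in sets 9 and 10. After the 2 libraries farthest from the BHLHE40 median were left out, r was 0.52, 0.40 and 0.53.

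PER2 in set 10 had an r of 0.95 with the library low in long transcripts (n = 18, permutation p = 0.00032, adjusted 0.0043) and of 0.58 without it (n = 17, permutation p = 0.015, adjusted 0.14). Its Spearman rho was 0.68 with the library (permutation p = 0.0025, adjusted 0.052) and 0.62 without it (permutation p = 0.0089, adjusted 0.15). PER1 in set 10 had 0.90 with it (permutation p = 0.0037, adjusted 0.02) and 0.39 without it (permutation p = 0.12, adjusted 0.26). DBP in set 10 had -0.93 with it (permutation p = 0.033, adjusted 0.075) and 0.06 without it (permutation p = 0.84, adjusted 0.85). The Pearson coefficients of PER1 and DBP rest on that library. Libraries of 1 set share extract and dose groups, so they are not independent draws.

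**Figure D5:**
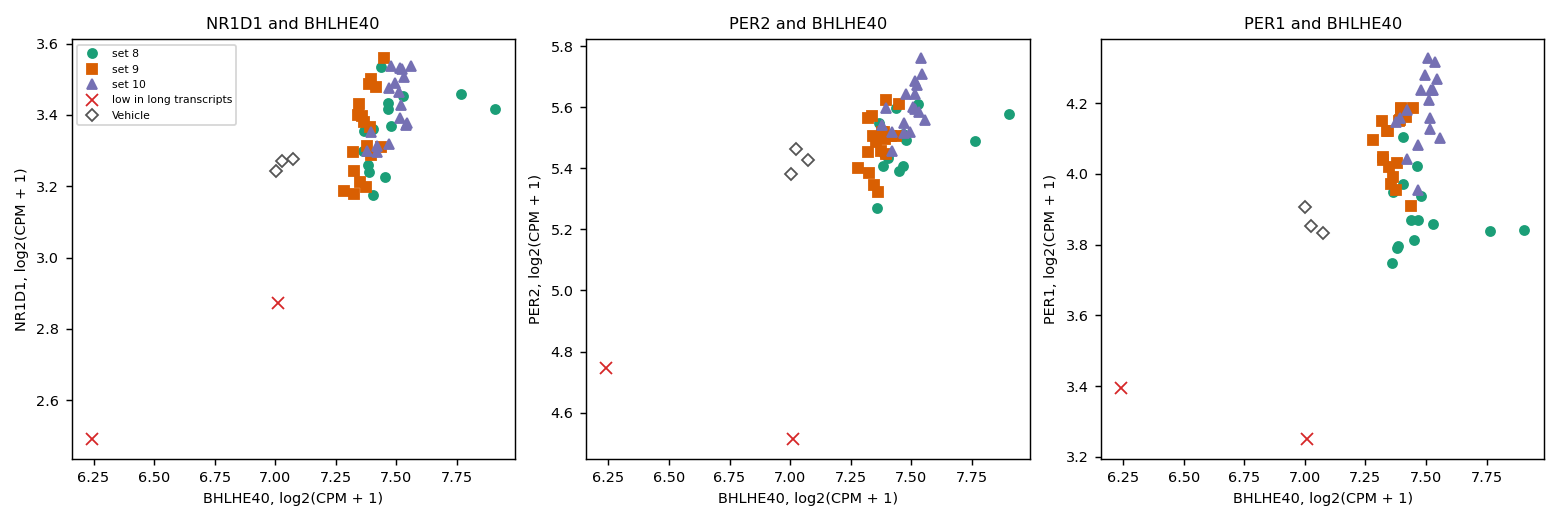
Log2(CPM + 1) of NR1D1, PER2 and PER1 (vertical axes) against BHLHE40 (horizontal axes) in the libraries of sets 8, 9 and 10, with vehicle as open diamonds and the 2 libraries low in long transcripts as crosses. The crosses lie at the lower left, away from the rest, and the vehicle libraries lie left of the other extract libraries.

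The rest of the clock machinery was compared through lists. Of 7 clock activators, 5 passed the filter (CLOCK, NPAS2, BMAL1, BMAL2 and RORA). In 54 libraries CLOCK was lower with Zizyphi Semen high (27.4 ± 1.46 CPM, n = 3) than with vehicle (40.8 ± 1.18 CPM, n = 3), a log2 fold change of -0.58 ± 0.14 with an edgeR adjusted p of 0.0161. In that comparison 3.66% of all genes were called. No other activator was called at a high dose against vehicle in 54 libraries. In 52 libraries CLOCK was also lower with Longan Arillus high (-0.46, edgeR adjusted p = 0.00722), and BMAL1 was higher with Soshiho-tang high (15.6 ± 0.168 CPM, n = 2) than with vehicle (12.5 ± 0.355 CPM, n = 3; log2 fold change 0.32, edgeR adjusted p = 0.00135), as was NPAS2 (0.34, edgeR adjusted p = 7.71e-07). CLOCK, BMAL1 and NPAS2 were singled out after their values were seen. In the single Polygalae Radix high library BMAL1 was at 6.79 CPM against 12.5 CPM in vehicle. Of the 5 tested activators 0 were at least 2-fold above or below vehicle there, beside 3.21% and 8.15% of all genes. A relation of BMAL1 to NR1D1 and NR1D2 was not tested.

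Of the 10 clock output and accessory genes, 2 were called higher and none lower with Soshiho-tang high against vehicle in 54 libraries, where 5.08% of all genes were called. TSC22D3, a glucocorticoid-induced gene with clock-dependent rhythms, had 22.3 ± 0.210 CPM (n = 2), against 7.76 ± 0.444 CPM in vehicle (n = 3; log2 fold change 1.52, edgeR adjusted p = 6.32e-14) and 8.37 ± 0.244 CPM at the low dose (1.42, 1.69e-11). NFIL3, the repressor that opposes DBP at the D-box, had 14.8 ± 0.511 CPM, against 10.2 ± 0.323 CPM in vehicle (log2 fold change 0.54, edgeR adjusted p = 0.000555). The median of the 10 was -0.05, beside 0.00 over all genes. In Polygalae Radix high, 4 of the 10 (TEF, NFIL3, CIART and WEE1) were at least 2-fold above vehicle and none below, beside 3.21% and 8.15% of all genes. The 10 genes of clock protein turnover had no member called at a high dose against vehicle in 54 libraries, where 0.325% to 5.08% of all genes were called.

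BHLHE40 is also a target of hypoxia-inducible factor, so 12 further targets were set beside it. With Soshiho-tang high, 3 of the 12 were called higher against vehicle in 54 libraries (ANGPTL4, PDK1 and VEGFA) and none lower. In that comparison 5.08% of all genes were called, and the list median was -0.09. VEGFA had 52.8 ± 1.79 CPM (n = 2), against 35.6 ± 0.262 CPM in vehicle (n = 3; log2 fold change 0.57, edgeR adjusted p = 0.000241) and 34.4 ± 1.02 CPM at the low dose (0.62, 0.000759). With Zizyphi Semen high ANGPTL4 and NDRG1 were called higher in 54 libraries (3.66% of all genes called), and with Schisandrae Fructus high ANGPTL4 (1.02%). None of the 12 was called with Yijin-tang (0.544%), Liriopis seu Ophiopogonis Tuber (0.325%) or Longan Arillus (1.33%). A part of hypoxia-inducible factor in the BHLHE40 level was not tested. In Polygalae Radix high 3 of the 12 were at least 2-fold below vehicle (CA9, NDRG1 and SLC2A1) and none above, beside 8.15% and 3.21% of all genes.

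Of 10 genes that answer to cAMP and CREB, 4 were at least 2-fold above vehicle in the single Polygalae Radix high library (the paralogues NR4A1, NR4A2 and NR4A3, and FOSB) and none below. Of all genes, 3.21% were that far above and 8.15% that far below. NR4A2 was at 42.7 CPM against a vehicle mean of 4.77 CPM and NR4A3 at 73.0 CPM against 9.21 CPM. FOSB was higher with Soshiho-tang high (3.61 ± 0.0968 CPM, n = 2) than with vehicle (1.14 ± 0.116 CPM, n = 3; log2 fold change 1.66, edgeR adjusted p = 0.000146), whereas PER1 had 13.3 CPM in both of those libraries and 13.3 to 14.0 CPM in vehicle. With Yijin-tang high in 52 libraries NR4A1 and NR4A3 were lower than with vehicle (-0.68 and -0.83; edgeR adjusted p = 2.14e-12 and 6.04e-07). Of the glucocorticoid receptor targets, 9 were tested. In 54 libraries TSC22D3 was called higher and SGK1 lower with Soshiho-tang high against vehicle and against the low dose. Of all genes, 5.08% and 1.58% were called in these comparisons. SGK1 had log2 fold changes of -0.22 and -0.34. PDK4 was lower with Zizyphi Semen high (21.1 ± 1.00 CPM, n = 3) than with vehicle (33.0 ± 2.00 CPM, n = 3; log2 fold change -0.65, edgeR adjusted p = 1.53e-05) and than at the low dose (34.97 ± 2.65 CPM, n = 3; -0.73, 8.56e-06).

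Over the 25 group means, the 5 genes most like BHLHE40 among 9416 genes of at least 10 CPM were SUPT7L (Pearson r = 0.86), FBF1 (0.83), HOXB9 (0.82), THAP9-AS1 (0.82) and KAT14 (0.81). HOXB9 stood at 37.5 CPM in Soshiho-tang high and 22.5 CPM in vehicle, and SUPT7L at 62.4 and 53.3 CPM. The 3 least like it were EIF4E2 (-0.88), NCLN (-0.81) and PDCD6 (-0.79); EIF4E2 stood at 64.8 CPM in Soshiho-tang high and 85.0 CPM in vehicle. Of the other 9 clock genes the closest over these 25 means was NR1D1 (r = 0.58). With 3 groups left out, BHLHE41 (0.47) and NR1D1 (0.46) were nearly level. The 25 means include the 2 libraries low in long transcripts. These coefficients are descriptions over means that share the same vehicle libraries and sets.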

How the data were processed

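Strand-marked paired-end RNA libraries were sequenced, per the labels' protocols. The authors deposited expected counts per Ensembl gene; RSEM 1.3.3 and STAR 2.7.3a appear in the submitters' processing notes with the build hg38, beside Trim Galore 0.6.5 for trimming and FastQC 0.11.9. Neither annotation release nor strand setting is given there. Of the values, 10.485% were not whole, and all were rounded.

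The 10 members, the gene lists and the tests were chosen with earlier results of these data known. Symbols, coordinates and exon lengths came from GENCODE 29, and promoter sequences from RefSeq (GRCh38.p14). CPM were scaled by TMM factors; ratios of unreplicated libraries used log2(CPM + 1). Genes passing filterByExpr (17826 in 54 libraries, 18228 in 52) were fitted by group with edgeR 4.0.16 (quasi-likelihood, R 4.3.3), with Benjamini-Hochberg adjustment over all genes and a threshold of 0.05. All 10 members were named. Of each further list, the rule named up to 4 genes called in 1 direction against both vehicle and the low dose of an extract; other list genes were named after their values were seen. Likeness took the 5 highest and 3 lowest Pearson coefficients over group means. The fit was tested on simulated data. Correlations used 100000 permutations. No 2 replicates were alike within counting noise (smallest chi-square over its degrees of freedom 1.863). Alternatives were RLE factors, no filter, own groups only, DESeq2 1.42.0, a replicate block, leaving out libraries and other pseudocounts. Same-numbered libraries did not deviate together in every pair, which cannot settle pairing in groups of 2 or 3. The main fit did not use the numbers.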

Additional observations from a re-analysis of the deposited data

Results flagged for a closer look

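The change in BHLHE40 between the low and the high dose differed between 2 extracts of the same set. In 52 libraries the high-minus-low change with Yijin-tang less that with Soshiho-tang was -0.43 on the log2 scale (edgeR adjusted p = 1.56e-06; 1.00 in 54 libraries). BHLHE40 had 163.3 to 174.0 CPM at the high dose of Yijin-tang and 163.9 to 175.7 CPM at its low dose, while Soshiho-tang had 216.4 to 238.7 CPM at the high dose and 168.3 to 175.6 CPM at the low dose.

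BHLHE40 libraries of the high and the low dose also lay apart in opposite directions in the extracts of set 9. Liriopis seu Ophiopogonis Tuber had 166.4 to 169.9 CPM at the high dose and 158.8 to 162.8 CPM at the low dose, and Schisandrae Fructus had 159.2 to 163.8 CPM at the high dose and 164.9 to 173.6 CPM at the low dose. The difference between these changes was 0.12 on the log2 scale and was not called (edgeR adjusted p = 1.00 in 54 libraries and 0.408 in 52).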

How the results depend on the processing

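The BHLHE40 change kept its direction and its side of the threshold in all 18 comparisons with RLE factors, the replicate block or DESeq2. Beside 54 libraries, the 52 without the pair low in long transcripts called more members against vehicle: 2 for Yijin-tang, Soshiho-tang, Liriopis seu Ophiopogonis Tuber and Longan Arillus, 1 for Schisandrae Fructus and 4 for Zizyphi Semen. Fits on each comparison's own groups called 1 to 4 members against vehicle. The shares of all genes called in own-group fits are not given here, so their counts describe those fits only. Against the low dose these settings called 2 and 1 for Soshiho-tang and 0 and 0 for Longan Arillus, 1 and 2 between Yijin-tang and Soshiho-tang high, and 1 and 1 for the difference of their dose changes.

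BHLHE40 passed the threshold in 52 libraries and in own groups for Yijin-tang (0.366 and 0.370), Liriopis seu Ophiopogonis Tuber (0.368 and 0.373), Schisandrae Fructus (0.312 and 0.318) and Longan Arillus (0.404 and 0.405) against vehicle. It also passed for Soshiho-tang high against low (0.404 and 0.405), Yijin-tang against Soshiho-tang high (-0.44 in both) and their dose changes (-0.43 and -0.434). In 52 libraries the Longan Arillus change against low reversed (-0.0111), as did its difference from Zizyphi Semen (-0.0359), and 0 relations with BHLHE40 passed by Pearson's r; by Spearman's rho without TMM factors 3 passed, against 0 with them. Without a filter, Zizyphi Semen had 0 members called and a BHLHE40 change of 0.489 (edgeR adjusted p = 0.114), and Longan Arillus against low had 1; DESeq2 called 2 for Zizyphi Semen. The cause was not tested.

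Leaving out 1 library each, Zizyphi Semen against vehicle had 0 to 0 members called and a BHLHE40 change of 0.498 to 0.530. Longan Arillus high against low had 0 to 5 members called and BHLHE40 changes of -0.0118 to 0.518, with the lowest without its low replicate 3. Its difference from Zizyphi Semen had 0 to 1 members called and changes of -0.0356 to 0.492. With the replicate block, BHLHE40 changed by 0.81 for Soshiho-tang high and 0.50 for Zizyphi Semen high against vehicle. Same-numbered libraries correlated at -0.266 to 0.276, which cannot settle pairing in groups of 2 or 3. BHLHE41, at 6 to 40 counts, is the member most limited by depth.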
